A study of Mus musculus with 8 samples.

Results

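Gr-1+ cells from the skin wounds of diabetic mice were compared, gene by gene, with Gr-1+ cells from the wounds of nondiabetic mice. The comparison took every row of the deposited expression table that carried a gene name, had an acceptable estimate (status OK) in all 4 wound libraries and spanned at least 200 bp, which left 27215 of 39330 assembled loci under 14983 gene names. The diabetic mice were homozygous for a mutant leptin receptor gene (Lepr -/-). The nondiabetic mice were heterozygous (Lepr +/-), so the controls also carried 1 mutant allele. All mice were labelled C57BL/6, were 8 to 16 weeks old and sex-matched with both sexes used, and were housed singly. Each received 2 excisional wounds of 8 mm on the back, and on day 3 the wounds were cut out with a 2 mm rim of skin and digested with enzymes, after which Gr-1+ cells were pulled out with magnetic beads. From 10 diabetic and 10 nondiabetic mice, cells of 5 animals at a time were combined. Each genotype therefore has 2 wound libraries, and 2 bone marrow libraries from the same groups of mice. A value from 1 pool is an average over 5 mice, so the p-values below measure the spread between pools and not between single mice. That spread is estimated over wound and marrow pools together.

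Leptin is the fat-derived hormone that restrains feeding, and mice without a working receptor become obese, insulin resistant and hyperglycaemic and close skin wounds slowly. The Gr-1 antibody binds Ly6G, carried by neutrophils, and Ly6C, carried by inflammatory monocytes, and these are the cells that enter a skin wound first. They kill microbes, release cytokines and chemokines, clear debris and, as monocytes become macrophages, release the growth factors that start new tissue.

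Expression was deposited as FPKM, fragment counts scaled by transcript length and by the library's mapped total, for each library, and differences are given as diabetic minus nondiabetic on the log2(FPKM + 1) scale, which understates the change of low genes. A gene was tested where it reached 1 FPKM in at least 2 wound libraries, which kept 12106 names, 430 of them through the diabetic pools alone and 357 through the nondiabetic pools alone. The sum of FPKM over all loci was 1634058 and 1566415 in the diabetic wound pools and 1544804 and 1780531 in the nondiabetic wound pools. The number of reads is not given in the sources used here. The steps between the lowest values put the depth of the second diabetic pool at 0.829, and of the nondiabetic pools at 0.831 and 0.736, of the depth of the first diabetic pool. Pools of a genotype were close. For genes with a mean of 10 to 100 FPKM the median absolute difference was 0.039 between the diabetic pools and 0.056 between the nondiabetic pools, against 0.286 between the genotypes.

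A large part of the transcriptome passed the test. In limma's moderated test with Benjamini-Hochberg adjustment over all 12106 genes, 7138 genes (59.0%) passed an adjusted p of 0.05, 4258 of them (35.2%) higher and 2880 (23.8%) lower in diabetic wound cells. With median-ratio scaling the split turned to 3271 higher and 3771 lower, so the balance of directions depends on the scaling. Differences of at least 1 on the log2 scale were found in 690 genes (5.70%), 309 higher (2.55%) and 381 lower (3.15%). Quantile scaling gave 399 higher and 589 lower by as much, and median-ratio scaling 273 higher and 486 lower. The pools of the 2 genotypes did not overlap in 9860 genes (81.4%). The median difference over all genes tested was 0.09, and each group of genes below is read against these shares.

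**Figure D1:**
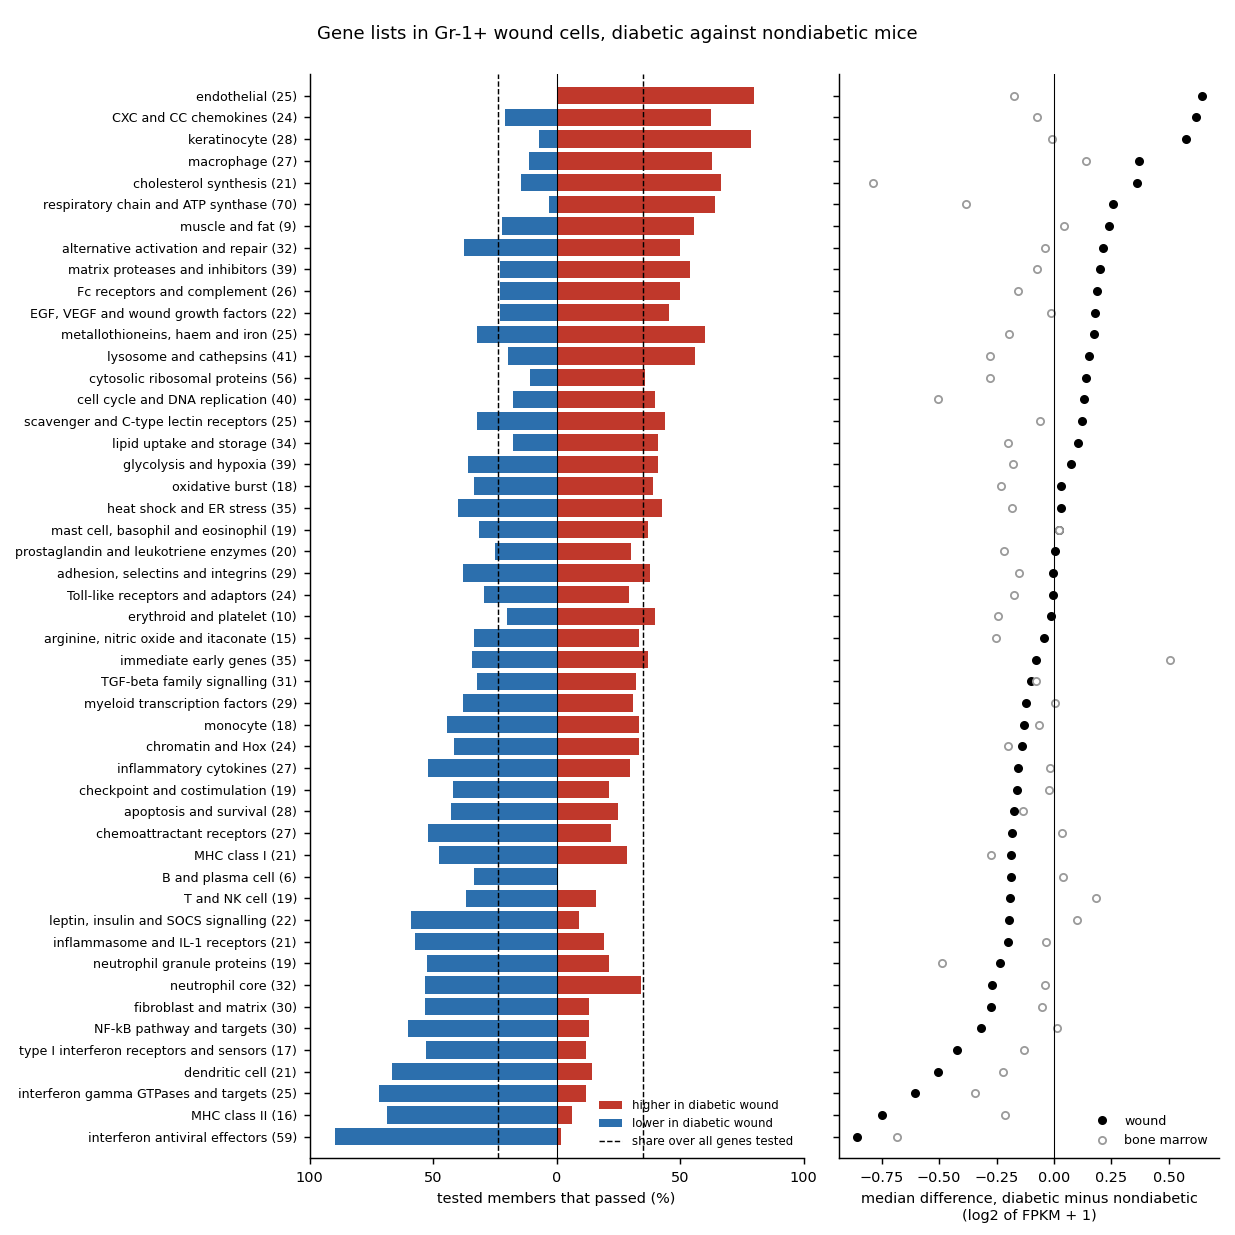
Gene lists in Gr-1+ wound cells, ordered by the median difference. Left, the share of tested members (number in brackets) that was higher (red, to the right) or lower (blue, to the left) in diabetic wound cells, with dashed lines at 35.2% and 23.8%, the shares over all genes tested; right, the median difference on the log2(FPKM + 1) scale in wound (filled) and in bone marrow (open). Interferon antiviral effectors lie at the bottom with 53 of 59 members lower, and endothelial markers at the top with 20 of 25 higher.

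The gene that defines the genotypes had a lower level in diabetic wound cells. Lepr, the leptin receptor, had 1.37 and 1.22 FPKM in the diabetic wound pools, against 4.95 and 4.66 FPKM in the nondiabetic wound pools, a difference of -1.34 (SE 0.098, adjusted p = 0.000141). The tested locus (chr4:101405873-101444039, mm9) covers 24% of the annotated exons of Lepr, so this level is not a test of the genotype. Among 22 tested members of the leptin, insulin and SOCS list, 13 were lower and 2 higher, with a median of -0.20. Stat5a, a transcription factor downstream of cytokine receptors, was lower at 5.62 and 5.62 FPKM in the diabetic pools and 11 and 10.8 FPKM in the nondiabetic pools. Socs3, the feedback inhibitor of leptin and IL-6 receptor signalling, was lower by a smaller amount (-0.22).

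Transcripts of the interferon response were mostly lower in diabetic wound cells. Type I interferon is released by cells that sense nucleic acids and acts through a receptor and the transcription factors it activates, STAT2 and IRF9 among them, which switch on a large set of antiviral genes through a DNA sequence called the interferon-stimulated response element. Of 59 tested members of the antiviral effector list, 53 were lower and 1 was higher, against 23.8% and 35.2% of all genes. The median difference was -0.86, and 22 members were lower by at least 1. The FPKM of the list summed to 1673 and 1671 in the diabetic wound pools, against 2802 and 2886 in the nondiabetic wound pools.

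Mx1, a GTPase that blocks influenza virus, differed most in the list. It had 6.06 and 5.93 FPKM in the diabetic wound pools and 27.7 and 27.8 FPKM in the nondiabetic wound pools (chr16:97668437-97684497, mm9), a difference of -2.04 (SE 0.054, adjusted p = 7e-06). Ifit2, which binds viral RNA, had 7.19 and 7.38 FPKM in diabetic pools and 22.9 and 23.3 FPKM in nondiabetic pools, a difference of -1.54 (SE 0.038, adjusted p = 6.03e-06). The oligoadenylate synthetases, which activate an RNA-cutting enzyme, moved together. Oas2 had 10.6 and 10.9 FPKM in diabetic pools against 32.7 and 32.8 FPKM in nondiabetic pools (-1.52, SE 0.036, adjusted p = 5.27e-06), and Oas3 had 6.96 and 7.03 FPKM in diabetic pools against 22.5 and 21.8 FPKM in nondiabetic pools (-1.53, SE 0.056, adjusted p = 1.61e-05). Rsad2, the antiviral enzyme viperin, had 66.8 and 65.9 FPKM in diabetic pools and 160 and 162 FPKM in nondiabetic pools (-1.26, SE 0.053, adjusted p = 2.29e-05). Ifitm1, a membrane protein that hinders viral entry, had 309 and 308 FPKM in diabetic pools and 621 and 645 FPKM in nondiabetic pools (-1.04, SE 0.045, adjusted p = 2.59e-05). Isg15, a ubiquitin-like protein that is attached to other proteins, had 55.2 and 52.9 FPKM in diabetic pools and 101 and 109 FPKM in nondiabetic pools (-0.95, SE 0.048, adjusted p = 3.95e-05). In each of these 7 genes both diabetic pools lay below both nondiabetic pools, against no overlap in either direction in 81.4% of all genes tested.

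Promoter windows of the antiviral genes with the largest differences are shown because many interferon-induced genes carry the response element close to their start. Mx1 and Ifi27l2a, ranked 1 and 6 by size of difference, have no window and are not shown. Each window runs from 250 bases before to 50 after the RefSeq start on GRCm38.p6, written along the gene's strand. Capitals mark GAAA, any 2 bases and GAAA on either strand, where the other strand reads TTTC, any 2 bases and TTTC. For Slfn8, a member of the Schlafen family, 1 of 2 RefSeq windows is shown, at chr11:83020761-83021060. Oas3 is at chr5:120777610-120777909 and Oas1a at chr5:120907476-120907775, and all of these lie on the minus strand. Ifit2, on the plus strand, has no match in either of its 2 windows, of which the one at chr19:34550444-34550743 is shown.
Slfn8: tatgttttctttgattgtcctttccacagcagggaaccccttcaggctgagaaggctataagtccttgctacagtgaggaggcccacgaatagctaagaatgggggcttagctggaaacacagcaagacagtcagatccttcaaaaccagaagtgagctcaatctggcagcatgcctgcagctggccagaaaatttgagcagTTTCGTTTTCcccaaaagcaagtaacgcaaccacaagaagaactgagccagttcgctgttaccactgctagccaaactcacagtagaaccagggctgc
Oas3: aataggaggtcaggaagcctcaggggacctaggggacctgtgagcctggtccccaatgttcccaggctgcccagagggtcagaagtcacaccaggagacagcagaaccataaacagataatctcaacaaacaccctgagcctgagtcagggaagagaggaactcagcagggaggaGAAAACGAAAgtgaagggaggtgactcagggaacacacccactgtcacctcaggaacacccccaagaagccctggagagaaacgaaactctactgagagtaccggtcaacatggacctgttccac
Oas1a: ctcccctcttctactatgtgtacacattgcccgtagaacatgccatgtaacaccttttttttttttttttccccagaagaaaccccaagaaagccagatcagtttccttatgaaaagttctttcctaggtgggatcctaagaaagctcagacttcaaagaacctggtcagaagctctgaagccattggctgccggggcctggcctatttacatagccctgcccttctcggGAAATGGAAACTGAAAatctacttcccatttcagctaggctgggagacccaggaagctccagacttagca
Ifit2: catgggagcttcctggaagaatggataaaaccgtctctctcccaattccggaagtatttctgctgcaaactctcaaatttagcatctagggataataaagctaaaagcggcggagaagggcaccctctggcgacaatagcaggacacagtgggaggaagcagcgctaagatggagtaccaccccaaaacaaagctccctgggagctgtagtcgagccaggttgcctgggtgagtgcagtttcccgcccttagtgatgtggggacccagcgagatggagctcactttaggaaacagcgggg
The letters occur in 3.44% of all 32851 promoter windows. Of the 59 tested members, 45 have a window, and 21 of these (46.7%) hold a match in at least 1 window. That is a share of members, who may have several windows, and not of windows. The 2 matches in Oas1a and the 1 match each in Oas3 and Slfn8 lie beside genes that were lower by 1.53, 1.53 and 1.73 on the log2 scale. Slfn8 had 2.83 and 5.36 FPKM in the diabetic wound pools and 16.6 and 14.3 FPKM in the nondiabetic wound pools, and Oas1a had 0.101 and 0.243 FPKM in diabetic pools and 2.06 and 2.74 FPKM in nondiabetic pools. Oas1a passed the testing floor through the nondiabetic pools alone. Slfn8 has close copies, and its joint row with Slfn10-ps and Slfn9 is listed apart, so its split of reads is uncertain. A match is a run of letters and was not tested for binding.

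The 1 member of the list that was higher rests on a fragment. Xaf1, an interferon-induced regulator of apoptosis, was tested on a locus of 545 bp that covers 9.9% of its annotated exons, with 33.1 and 32.8 FPKM in the diabetic pools and 10.8 and 11.6 FPKM in the nondiabetic pools (1.48, SE 0.067, adjusted p = 2.87e-05). On the locus with the largest share of annotated exons, an alternative chosen after seeing the data, the difference of Xaf1 was -1.84 with an adjusted p of 0.000183, and no member of the list was then higher. Of the remaining members, 5 did not pass the test.

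**Figure D2:**
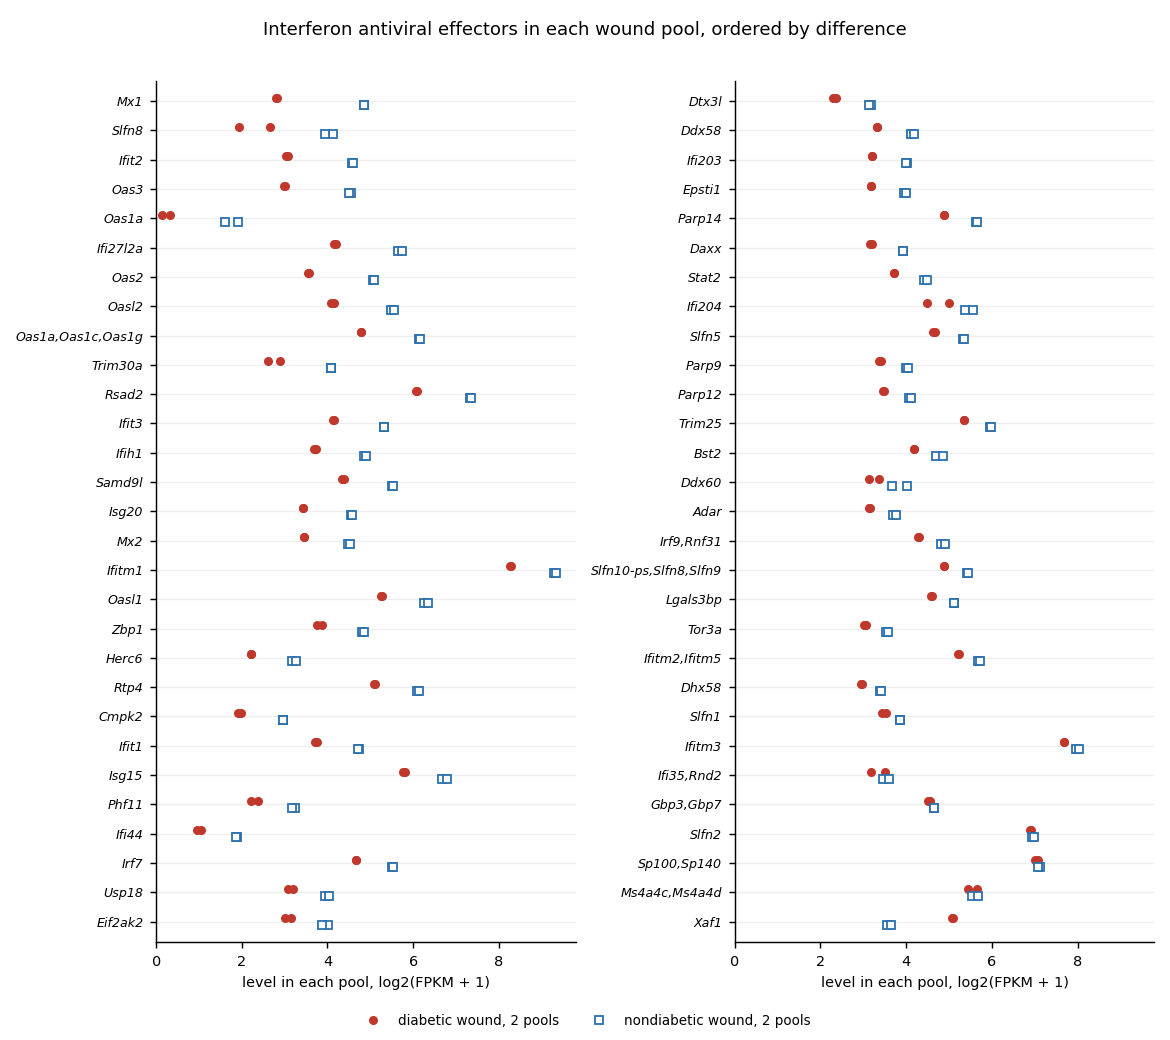
Level of 58 of the 59 tested interferon antiviral effectors, on the log2(FPKM + 1) scale, in the 2 diabetic wound pools (red circles, upper position in each row) and the 2 nondiabetic wound pools (blue squares, lower position), with genes ordered by their difference. Red circles lie left of blue squares from Mx1 down to Ifitm3, and Xaf1, on a 545 bp locus, lies the other way.

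Genes upstream of this response were lower too. Ifnb1, which encodes interferon beta, had 27.8 and 27.2 FPKM in the diabetic wound pools, against 61 and 65.4 FPKM in the nondiabetic wound pools, a difference of -1.17 (SE 0.069, adjusted p = 6.36e-05). Both chains of its receptor were lower. Ifnar1 had 61.9 and 62.8 FPKM in diabetic pools and 88.8 and 89.5 FPKM in nondiabetic pools, and Ifnar2 had 7.14 and 6.28 FPKM in diabetic pools and 14.5 and 12.9 FPKM in nondiabetic pools. The transcription factors Irf7 and Stat2, both in the effector list, differed by -0.86 and -0.74. The cytosolic RNA sensors Ifih1 and Ddx58 differed by -1.17 and -0.83, and Tlr9, the endosomal sensor of DNA, by -0.82. Tlr7, the endosomal sensor of single-stranded RNA, was higher, at 14.6 and 13.9 FPKM in diabetic pools and 9.35 and 9.27 FPKM in nondiabetic pools (0.56, SE 0.042, adjusted p = 0.000145), a call that was lost when loci of any length were used (0.80, adjusted p = 0.141). In the separate list of type I interferon ligands, receptors and sensors, which holds Ifnb1, both receptor chains and the Toll-like receptors named, 9 of 17 members were lower and 2 higher.

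Genes that answer interferon gamma, the interferon of T and NK cells, were also lower, 18 of 25 members against 3 higher, with a median of -0.60. Ifngr1, a chain of the interferon gamma receptor, had 46.9 and 46.9 FPKM in the diabetic wound pools and 93.7 and 94.5 FPKM in the nondiabetic wound pools (-0.99, SE 0.042, adjusted p = 2.29e-05). Gbp5, a GTPase that acts on bacteria-containing vacuoles, had 19.9 and 18.5 FPKM in diabetic pools and 43.3 and 44.6 FPKM in nondiabetic pools (-1.16, SE 0.054, adjusted p = 3.14e-05). Cd274, the checkpoint ligand PD-L1, had 200 and 201 FPKM in diabetic pools and 332 and 346 FPKM in nondiabetic pools (-0.76, SE 0.048, adjusted p = 8.79e-05). Irf1, a transcription factor of the same response, was higher, at 394 and 388 FPKM in diabetic pools and 229 and 234 FPKM in nondiabetic pools, on a locus with 21.8% of its annotated exons. Beside these genes, 7 of 19 tested markers of T and NK cells were lower, 3 were higher and 9 did not pass. The median of that list was -0.19, and -0.04 to -0.45 with 1 wound pool left out. Its FPKM, which include the chemokine Ccl5, summed to 225 and 220 in diabetic pools and 362 and 395 in nondiabetic pools. Among the NK receptors, Klrd1 had 2.47 and 2.16 FPKM in diabetic pools and 11.8 and 10.3 FPKM in nondiabetic pools (-1.86, SE 0.14, adjusted p = 0.000145). Klrb1b and Klrb1c, which share 1 row, had 3.26 and 4.96 FPKM in diabetic pools and 18.6 and 17.2 FPKM in nondiabetic pools (-1.91, SE 0.21, adjusted p = 0.000608). Gzmb, the cytotoxic protease granzyme B, differed by -1.16, while Il7r, the interleukin 7 receptor, was higher by 0.69. Monocyte markers summed to 2176 and 2145 FPKM in diabetic pools and 2192 and 2289 FPKM in nondiabetic pools. In bulk RNA, fewer cells of a type and less RNA per cell cannot be told apart, and the part of either in the interferon result was not tested.

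Transcripts of MHC class II antigen presentation were mostly lower. MHC class II molecules display peptides to helper T cells on dendritic cells, macrophages and B cells. Of 16 tested members, 11 were lower and 1 higher, with a median of -0.75. H2-Ab1, the beta chain of I-A, had 66.2 and 68 FPKM in the diabetic wound pools, against 182 and 203 FPKM in the nondiabetic wound pools, a difference of -1.51 (SE 0.056, adjusted p = 1.7e-05). Cd74, the invariant chain that guides class II molecules, had 332 and 319 FPKM in diabetic pools and 536 and 579 FPKM in nondiabetic pools (-0.77, SE 0.051, adjusted p = 9.44e-05). H2-Eb1, the beta chain of I-E, differed by -0.82. Ciita, the master activator of class II genes, had 0.756 and 0.741 FPKM in diabetic pools and 2.09 and 2.68 FPKM in nondiabetic pools (-0.95, SE 0.089, adjusted p = 0.000354). It passed the testing floor through the nondiabetic pools alone. The pools of the 2 genotypes did not overlap in any of these 4 genes, nor in 81.4% of all genes tested.

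H2-Ea-ps, which is not among the 16 members counted above, went the other way by a wide margin. It is the alpha chain gene of I-E, annotated as a pseudogene because the reference strain carries a promoter deletion that silences it. It had 299 and 288 FPKM in the diabetic wound pools, against 24.7 and 26.5 FPKM in the nondiabetic wound pools, a difference of 3.47 (SE 0.044, adjusted p = 1.97e-06). The same gene had 57.9 and 58.3 FPKM in diabetic bone marrow and 1.46 and 1.57 FPKM in nondiabetic bone marrow. Class I genes of the same region were mixed, with 10 of 21 lower and 6 higher. The row of H2-K1 and H2-K2 had 906 and 887 FPKM in diabetic wound pools and 1460 and 1517 FPKM in nondiabetic wound pools (-0.73, SE 0.14, adjusted p = 0.00958), in a fit without 1 marrow pool whose estimate failed. The row of H2-Gs10 and H2-Q7 had 1521 and 1558 FPKM in diabetic wound pools and 707 and 794 FPKM in nondiabetic wound pools (1.04, SE 0.069, adjusted p = 0.000102), and in bone marrow it had 2403 and 2376 FPKM in diabetic pools against 229 and 236 FPKM in nondiabetic pools. These genes are near-identical copies, and their split of reads is uncertain. For H2-Ea-ps and all other genes, a difference in genetic background between the groups cannot be told apart from diabetes and was not tested.

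Dendritic cell markers were lower with them, 14 of 21 lower and 3 higher, with a median of -0.51. Ccr7, the receptor that brings mature dendritic cells to lymph nodes, had 29.3 and 28.9 FPKM in the diabetic wound pools and 97.6 and 102 FPKM in the nondiabetic wound pools, a difference of -1.74 (SE 0.045, adjusted p = 6.44e-06). Flt3, the receptor for the growth factor of dendritic cells, had 2.43 and 2.33 FPKM in diabetic pools and 5.67 and 5.45 FPKM in nondiabetic pools (-0.96, SE 0.070, adjusted p = 0.000141). Cd209a, a lectin of monocyte-derived dendritic cells, differed by -1.08. Ccl22, a chemokine of mature dendritic cells, differed by -1.07, and Ccl17, its neighbour that binds the same receptor, was higher by 0.88. Summed dendritic marker FPKM were 1063 and 1067 in diabetic pools and 1249 and 1295 in nondiabetic pools, and how much of the class II result they carry was not tested.

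Inflammatory cytokines split into lowered and raised members. Of 27 tested, 14 were lower and 8 higher. Il1b, which encodes the fever and neutrophil-recruiting cytokine interleukin 1 beta, had 1732 and 1703 FPKM in the diabetic wound pools, against 3119 and 3419 FPKM in the nondiabetic wound pools, a difference of -0.93 (SE 0.071, adjusted p = 0.000167). Il1f9, a relative of interleukin 1 that acts in skin, had 330 and 328 FPKM in diabetic pools and 703 and 746 FPKM in nondiabetic pools (-1.14, SE 0.058, adjusted p = 3.98e-05). Subunits of the interleukin 12 family, which steer helper T cells, were lower together. Il23a had 36.1 and 33 FPKM in diabetic pools and 64.5 and 64.2 FPKM in nondiabetic pools, while Il12a, Il12b and Ebi3 differed by -1.07, -0.87 and -1.25. Csf3, which encodes G-CSF, the growth factor of neutrophils, was higher, with 64.9 and 65 FPKM in diabetic pools and 25.1 and 25.2 FPKM in nondiabetic pools (1.34, SE 0.038, adjusted p = 8.97e-06). Csf2, which encodes GM-CSF, had 9.24 and 8.72 FPKM in diabetic pools and 3.86 and 3.97 FPKM in nondiabetic pools (1.02, SE 0.057, adjusted p = 5.46e-05). Tnf, tumour necrosis factor, was higher by less, with 785 and 786 FPKM in diabetic pools and 559 and 574 FPKM in nondiabetic pools (0.47, SE 0.040, adjusted p = 0.000251).

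NF-kB drives many of these genes and switches on its own inhibitors. Of 30 members of its pathway and target list, 18 were lower and 4 higher, with a median of -0.32. Tnfaip3, the ubiquitin-editing inhibitor A20, had 613 and 603 FPKM in the diabetic wound pools and 1020 and 1053 FPKM in the nondiabetic wound pools (-0.77, SE 0.079, adjusted p = 0.000494). Nfkbia, the inhibitor that holds NF-kB in the cytosol, differed by -0.61, and Birc3, a ubiquitin ligase that protects from cell death, by -0.99. Icam1, an adhesion molecule, and Ier3, an early response gene, were higher, by 0.49 and 0.72. In the inflammasome list, 12 of 21 members were lower and 4 higher. Nlrp3, the sensor, differed by -0.47 and Mefv, the sensor pyrin, by -1.17. P2rx7, the ATP-gated channel that triggers NLRP3, was higher, with 60.3 and 58.3 FPKM in diabetic pools and 23.5 and 23.8 FPKM in nondiabetic pools (1.29, SE 0.085, adjusted p = 9.7e-05).

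Chemokines were higher on balance in diabetic wound cells: 15 of 24 tested were higher and 5 lower, with a median of 0.62, and 8 were higher by at least 1. Ppbp, the precursor of the neutrophil attractant CXCL7, differed most. It had 244 and 237 FPKM in the diabetic wound pools, against 29.1 and 28.4 FPKM in the nondiabetic wound pools (chr5:91197443-91199177, mm9), a difference of 3.02 (SE 0.067, adjusted p = 5.07e-06). Pf4, or CXCL4, had 280 and 272 FPKM in diabetic pools and 65.4 and 73.9 FPKM in nondiabetic pools (1.98, SE 0.063, adjusted p = 1.06e-05). Both are known as platelet alpha-granule chemokines and are also made by macrophages. Other platelet and megakaryocyte markers were near the testing floor: Itga2b had 1.53 and 1.19 FPKM in diabetic pools and 1.75 and 2.07 FPKM in nondiabetic pools, and Tubb1 had 1.74 and 2.3 FPKM in diabetic pools and 2.4 and 2.28 FPKM in nondiabetic pools. Neither passed the test. Itga2b passed as lower in 6 of 22 alternatives (adjusted p-values of 0.0096 to 0.0495), among them quantile and median-ratio scaling, and Tubb1 in 1 of 22, without the second diabetic pool (-0.28, adjusted p = 0.0469). The markers Gp9, Gp5 and Treml1 were below the testing floor. Of 27 erythroid and platelet markers, 10 were tested, 4 of them higher and 2 lower (3 and 4 with median-ratio scaling). Their FPKM, mostly from Ppbp and Pf4, summed to 603 and 592 in diabetic pools and 153 and 165 in nondiabetic pools. The part of platelets in the 2 chemokine results was not tested.

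Cxcl5, a neutrophil attractant made by epithelium and platelets, had 63.4 and 62.9 FPKM in diabetic pools and 15.5 and 15.4 FPKM in nondiabetic pools (1.96, SE 0.042, adjusted p = 4.8e-06). Ccl2, a monocyte attractant, had 899 and 886 FPKM in the diabetic pools and 300 and 310 FPKM in the nondiabetic pools (1.55, SE 0.18, adjusted p = 0.000822). Ccl7 had 269 and 271 FPKM in the diabetic pools and 100 and 105 FPKM in the nondiabetic pools (1.39, SE 0.060, adjusted p = 2.48e-05). Ccl12 and Ccl8, neighbours of Ccl2 on chromosome 11, differed by 1.21 and 0.92. Ccl24, an eosinophil attractant, had 5.18 and 5.2 FPKM in diabetic pools and 0.582 and 0.707 FPKM in nondiabetic pools (1.91, SE 0.059, adjusted p = 1.05e-05). It passed the testing floor through the diabetic pools alone. On the other side was Ccl5, a T cell attractant, with 112 and 103 FPKM in diabetic pools and 223 and 274 FPKM in nondiabetic pools (-1.20, SE 0.41, adjusted p = 0.0479). That call was lost in 11 of 23 alternatives (adjusted p-values of 0.0514 to 0.417), among them leaving out any 1 of the 4 wound pools. With the wound libraries alone the Ccl5 call held. The spread in the main fit is shared with marrow. There Ccl5 had 0 and 1.34 FPKM in diabetic pools and 0.623 and 1.56 FPKM in nondiabetic pools. Cxcl1 and the joint row of Cxcl2 and Cxcl3, the main neutrophil attractants of mouse skin, had a failed estimate in the first diabetic pool and were not tested. Cxcl1 had 2873 FPKM in the second diabetic pool, against 1055 and 1101 FPKM in the nondiabetic pools. The row of Cxcl2 and Cxcl3 had 5323 FPKM in the second diabetic pool, against 4656 and 4921 FPKM in the nondiabetic pools.

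The receptors for such signals were mostly lower, 14 of 27 lower and 6 higher. Cxcr2, the neutrophil receptor for CXCL1, CXCL2, CXCL5 and CXCL7, had 19.5 and 23.2 FPKM in the diabetic wound pools and 30.7 and 33.3 FPKM in the nondiabetic wound pools (-0.57, SE 0.097, adjusted p = 0.00362). Cxcr1 had 7.05 and 7.72 FPKM in diabetic pools and 14.7 and 15.6 FPKM in nondiabetic pools (-0.94, SE 0.061, adjusted p = 9.22e-05). Ccr2, the receptor for CCL2 on monocytes, differed by -0.65, and Fpr1, the receptor for bacterial formyl peptides, by -0.72. Cxcr1, Cxcr2 and Fpr1 also stand in the neutrophil list, where 17 of 32 members were lower and 11 higher. Macrophage markers were higher beside the chemokines, 17 of 27 higher and 3 lower, and summed to 2749 and 2708 FPKM in diabetic pools and 1806 and 1884 FPKM in nondiabetic pools. That list holds Pf4 and Hmox1. C1qa, a complement gene of tissue macrophages, differed by 0.26 and Mrc1, the mannose receptor, by 0.63. The part of macrophage number in the chemokine result was not tested.

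**Figure D3:**
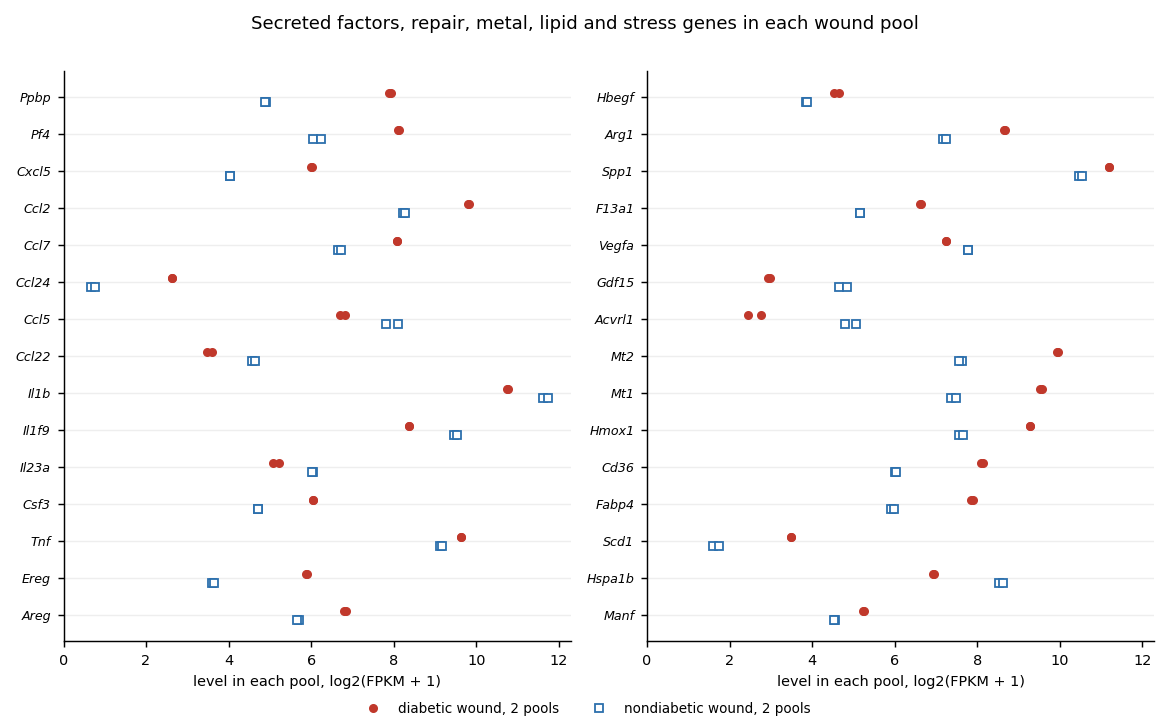
Level of 30 genes of secreted factors, repair, metal, lipid and stress groups on the log2(FPKM + 1) scale in the 2 diabetic wound pools (red circles, upper position in each row) and the 2 nondiabetic wound pools (blue squares, lower position). The pools of the 2 genotypes do not overlap in any of the 30 genes, nor in 81.4% of all genes tested. Ppbp, Mt2 and Ereg are among the genes higher and Acvrl1, Gdf15 and Hspa1b among those lower in diabetic wound cells.

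Ereg, Areg and Hbegf, growth factors of the epidermal growth factor family, were higher. These ligands drive keratinocytes to divide and crawl over a wound. Ereg, epiregulin, had 58.5 and 57.3 FPKM in the diabetic wound pools, against 11.1 and 11.5 FPKM in the nondiabetic wound pools, a difference of 2.26 (SE 0.053, adjusted p = 5.27e-06). Areg, amphiregulin, had 115 and 111 FPKM in diabetic pools and 51.6 and 49.7 FPKM in nondiabetic pools (1.14, SE 0.049, adjusted p = 2.39e-05). Hbegf, the heparin-binding member, differed by 0.74, and Hgf, a growth factor for epithelium outside that family, by 0.85. Vegfa, the main angiogenic factor, was lower, with 151 and 151 FPKM in diabetic pools and 217 and 218 FPKM in nondiabetic pools (-0.53, SE 0.058, adjusted p = 0.000662). Pgf, its relative that binds the same receptor family, differed by -0.77. Gdf15, a stress-induced member of the TGF-beta superfamily, had 6.84 and 6.69 FPKM in diabetic pools and 24.1 and 27.6 FPKM in nondiabetic pools (-1.79, SE 0.071, adjusted p = 1.9e-05). Of 22 growth factors tested, 10 were higher and 5 lower (9 and 8 with quantile or median-ratio scaling).

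Genes of alternative activation, the macrophage state tied to repair, were split, with 16 of 32 higher and 12 lower. Arg1, arginase 1, had 404 and 400 FPKM in the diabetic wound pools, against 143 and 150 FPKM in the nondiabetic wound pools, a difference of 1.45 (SE 0.10, adjusted p = 0.000126). F13a1, the clotting factor that cross-links fibrin, had 98.2 and 96.5 FPKM in diabetic pools and 34.6 and 34.8 FPKM in nondiabetic pools (1.46, SE 0.036, adjusted p = 5.83e-06). Spp1, osteopontin, had 2344 and 2361 FPKM in diabetic pools and 1421 and 1494 FPKM in nondiabetic pools (0.69, SE 0.19, adjusted p = 0.0204), and it lost its call without any 1 of the 4 wound pools (adjusted p-values of 0.0639 to 0.085) and under quantile scaling, where the difference was 0.23 (adjusted p = 0.295). The Spp1 call held with the wound libraries alone. In marrow, which shares the spread of the main fit, Spp1 had 4.64 and 2.7 FPKM in diabetic pools. Nondiabetic marrow had 8.08 and 7.05 FPKM. The joint row of Chi3l3 and Chi3l7, the chitinase-like protein Ym1 and a relative, had 57.3 and 57.2 FPKM in diabetic pools and 51.9 and 53.9 FPKM in nondiabetic pools and did not pass (0.11, SE 0.045, adjusted p = 0.0767). In the list of arginine, nitric oxide and itaconate genes 5 of 15 were higher and 5 lower (4 and 7 with median-ratio scaling). Odc1, the first enzyme of polyamine synthesis from ornithine, was lower, with 54.7 and 53.7 FPKM in diabetic pools and 153 and 163 FPKM in nondiabetic pools (-1.53, SE 0.048, adjusted p = 1.05e-05). Irg1, the enzyme that makes itaconate, differed by -0.73.

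In TGF-beta family signalling 10 of 31 members were higher and 10 lower (8 and 14 with median-ratio scaling). Acvrl1, the type I receptor ALK1, stood out. It had 5.78 and 4.48 FPKM in the diabetic wound pools, against 26.8 and 32.4 FPKM in the nondiabetic wound pools (chr15:100958374-100975982, mm9), a difference of -2.32 (SE 0.16, adjusted p = 0.000103). In bone marrow it had 3.17 and 2.29 FPKM in diabetic pools and 211 and 217 FPKM in nondiabetic pools. ALK1 is best known in endothelium. Of 25 endothelial markers 20 were higher in diabetic wound cells, and the part of such cells in the Acvrl1 result was not tested. Id2, a target of BMP signalling that blocks helix-loop-helix factors, was higher, with 365 and 359 FPKM in diabetic pools and 151 and 143 FPKM in nondiabetic pools (1.29, SE 0.039, adjusted p = 1.02e-05). Smad3, a transducer of TGF-beta, differed by -0.71 and Tgfb1, the ligand, by 0.56. Among matrix proteases and inhibitors 21 of 39 were higher and 9 lower (17 and 12 with median-ratio scaling). The collagenase Mmp13 had 64.9 and 63.5 FPKM in diabetic pools and 27.4 and 28.7 FPKM in nondiabetic pools (1.17, SE 0.059, adjusted p = 3.98e-05). Mmp3 differed by 1.03 and Plau, the urokinase that activates plasminogen, by 0.59.

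Metal and haem genes held some of the largest rises among abundant genes. Metallothioneins are small cysteine-rich proteins that bind zinc and copper and are switched on by metals, glucocorticoids and oxidants. Mt2 had 997 and 972 FPKM in the diabetic wound pools, against 199 and 188 FPKM in the nondiabetic wound pools, a difference of 2.34 (SE 0.11, adjusted p = 3.14e-05). Mt1 had 759 and 738 FPKM in diabetic pools and 163 and 178 FPKM in nondiabetic pools (2.13, SE 0.066, adjusted p = 1.05e-05). Both genes lie side by side on chromosome 8. Their promoter windows (GRCm38.p6, plus strand, chr8:94172368-94172667 for Mt2 and chr8:94178839-94179138 for Mt1) are shown because the metal-responsive transcription factor binds such elements near the start. Capitals mark TGCACNC or TGCGCNC on either strand, the core of the metal response element, where the other strand reads GNGTGCA or GNGCGCA.
Mt2: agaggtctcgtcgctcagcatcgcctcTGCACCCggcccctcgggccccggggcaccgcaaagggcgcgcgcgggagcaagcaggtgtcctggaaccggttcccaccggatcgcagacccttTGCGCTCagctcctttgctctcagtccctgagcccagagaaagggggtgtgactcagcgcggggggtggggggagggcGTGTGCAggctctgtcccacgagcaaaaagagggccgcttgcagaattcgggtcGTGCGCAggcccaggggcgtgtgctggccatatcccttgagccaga
Mt1: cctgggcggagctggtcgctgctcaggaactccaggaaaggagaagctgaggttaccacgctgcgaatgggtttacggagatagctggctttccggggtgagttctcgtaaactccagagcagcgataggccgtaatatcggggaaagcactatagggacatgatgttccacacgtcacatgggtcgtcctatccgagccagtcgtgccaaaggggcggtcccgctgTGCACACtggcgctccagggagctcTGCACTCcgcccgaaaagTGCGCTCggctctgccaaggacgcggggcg
The Mt2 window holds 4 matches and the Mt1 window 3. At least 1 match occurs in 25.7% of all 32851 windows and at least 3 in 1.97%. Of 20 members of the list with a window, 6 hold a match in at least 1 window (30%), a share of members and not of windows.

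Hmox1, haem oxygenase 1, had 624 and 617 FPKM in the diabetic wound pools and 188 and 199 FPKM in the nondiabetic wound pools, a difference of 1.67 (SE 0.036, adjusted p = 4.83e-06). The quinone reductase Nqo1 had 5.3 and 5.24 FPKM in diabetic pools and 1.94 and 2.3 FPKM in nondiabetic pools (1.01, SE 0.073, adjusted p = 0.000134), and Srxn1, sulfiredoxin, and Prdx1, a peroxiredoxin, differed by 0.91 and 0.93. The 2 chains of ferritin, the iron store, moved apart. Fth1, the heavy chain, had 7025 and 6934 FPKM in diabetic pools and 10588 and 10615 FPKM in nondiabetic pools (-0.60, SE 0.084, adjusted p = 0.0016). The joint row of Bax and Ftl1, which holds the light chain, had 2271 and 2255 FPKM in diabetic pools and 1395 and 1490 FPKM in nondiabetic pools (0.65, SE 0.059, adjusted p = 0.000316). Neither ferritin call held under quantile scaling (differences of 0.00 and 0.17). That scaling gives genes of equal rank the same value, so it cannot show a difference in Fth1 where its rank is the same in every pool. Of 25 members of the list, 15 were higher and 8 lower. Ncf1, a subunit of the oxidase that makes superoxide, was lower, at 31.2 and 30.5 FPKM in diabetic pools and 79.3 and 82.7 FPKM in nondiabetic pools (-1.36, SE 0.042, adjusted p = 1.05e-05), in the oxidative burst list of 18, Prdx1 included, where 7 were higher and 6 lower (6 and 8 with median-ratio scaling).

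Genes of fatty acid handling were among the largest differences in an otherwise mixed list of 34, with 14 higher and 6 lower (10 and 11 with median-ratio scaling). Cd36, the fatty acid and oxidized lipoprotein receptor, had 280 and 270 FPKM in the diabetic wound pools, against 63.5 and 64.7 FPKM in the nondiabetic wound pools, a difference of 2.08 (SE 0.043, adjusted p = 4.8e-06). Fabp4, a fatty acid carrier of fat cells, capillaries and macrophages, had 236 and 229 FPKM in diabetic pools and 58.9 and 62.4 FPKM in nondiabetic pools (1.92, SE 0.096, adjusted p = 3.82e-05). Scd1, which desaturates fatty acids, had 10.2 and 10.2 FPKM in diabetic pools and 2.04 and 2.33 FPKM in nondiabetic pools (1.81, SE 0.066, adjusted p = 1.53e-05). Mgll, which breaks down monoglycerides, differed by 1.25, and Dgat2, which builds triglycerides, by -1.10. Cd36, Fabp4 and Scd1 were also higher in diabetic than in nondiabetic bone marrow, by 1.62, 0.99 and 1.45.

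Transcripts of cholesterol synthesis and the respiratory chain were higher on balance in diabetic wound cells, while their medians in marrow were below 0. Over all genes the median difference was 0.09 in wound and -0.09 in marrow. Of 21 cholesterol genes 14 were higher and 3 lower, with a median of 0.36 in wound and -0.79 in marrow. Sqle, squalene epoxidase, had 3.79 and 4.08 FPKM in the diabetic wound pools and 1.99 and 1.92 FPKM in the nondiabetic wound pools (0.74, SE 0.061, adjusted p = 0.000214). In marrow it had 1.43 and 1.29 FPKM in diabetic pools and 4.76 and 5.06 FPKM in nondiabetic pools, a difference of -1.32. Of 70 genes of the respiratory chain and ATP synthase 45 were higher and 2 lower (30 and 4 with median-ratio scaling), with small shifts: the median was 0.26 in wound and -0.38 in marrow. Atp5b, a subunit of ATP synthase, had 132 and 129 FPKM in diabetic wound pools and 102 and 103 FPKM in nondiabetic wound pools (0.34, SE 0.040, adjusted p = 0.000837). Ndufs5, of complex I, went the other way, with 8.38 and 7.47 FPKM in diabetic wound pools and 18.8 and 18 FPKM in nondiabetic wound pools (-1.12, SE 0.055, adjusted p = 3.66e-05). Lysosomal genes were higher in 23 of 41 cases and lower in 8 (18 and 12 with median-ratio scaling), none by as much as 1. Examples are the protease Ctsl (0.72) and progranulin, Grn (0.71).

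Chaperones divided by compartment. Of 11 tested heat shock proteins and partners of the cytosol and mitochondria, which refold proteins after heat or oxidant stress, all 11 were lower. Of 14 tested chaperones and folding enzymes of the endoplasmic reticulum, 13 were higher and Hyou1 was lower by 0.37. This division was made after the values were seen. Hspa1b, the inducible HSP70, had 122 and 121 FPKM in the diabetic wound pools, against 371 and 392 FPKM in the nondiabetic wound pools, a difference of -1.64 (SE 0.10, adjusted p = 8.21e-05). Hsp90aa1 and Dnajb1 differed by -0.63 and -0.63. Pdia3, a disulphide isomerase of the endoplasmic reticulum, had 124 and 122 FPKM in diabetic pools and 77.2 and 76.9 FPKM in nondiabetic pools (0.67, SE 0.029, adjusted p = 2.54e-05). Manf, a factor induced by stress of that compartment, had 36.5 and 37.5 FPKM in diabetic pools and 22.6 and 22.3 FPKM in nondiabetic pools (0.70, SE 0.033, adjusted p = 3.14e-05), and Dnajb9 and Hspa5 differed by 0.69 and 0.34. The list that holds both kinds had 15 of 35 higher and 14 lower. The 6 members of that list that did not pass stand in neither group, nor do some members that passed. Ern1, a member of that list that differed by -0.87, is not among the 14 of the endoplasmic reticulum. The division therefore does not describe the whole list.

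Genes that define neutrophils were lower in more cases than higher, 17 against 11 of 32, with a median of -0.27. Over all genes, 23.8% were lower and 35.2% higher. Their FPKM, those of Stfa2 included, summed to 13791 and 19403 in the diabetic wound pools. The nondiabetic wound pools had 13540 and 14144 FPKM, so the sums were not lower in diabetic pools as a group. Ly6g, the neutrophil antigen of the Gr-1 antibody, had 12.2 and 12.9 FPKM in the diabetic wound pools and 17.2 and 19.2 FPKM in the nondiabetic wound pools (-0.50, SE 0.071, adjusted p = 0.00173). The same gene had 566 and 569 FPKM in diabetic marrow and 808 and 900 FPKM in nondiabetic marrow, so its level per length was far lower in the wound cells of both genotypes. The joint row of Ly6a, Ly6c1 and Ly6c2, which includes the monocyte antigen, had 158 and 158 FPKM in diabetic pools and 142 and 143 FPKM in nondiabetic pools (0.15, SE 0.044, adjusted p = 0.0292). That small difference lost its call without any 1 wound pool (adjusted p of 0.0830 to 0.149), and under quantile (0.686) and median-ratio scaling (0.436). S100a8, a subunit of calprotectin, had 774 and 762 FPKM in diabetic pools and 1008 and 994 FPKM in nondiabetic pools (-0.38, SE 0.058, adjusted p = 0.00724), with adjusted p-values of 0.054 and 0.058 when either diabetic pool was left out. S100a9, the other subunit, had 4956 and 4970 FPKM in diabetic pools and 5864 and 6378 FPKM in nondiabetic pools and did not pass (-0.30, SE 0.13, adjusted p = 0.122). It passed as lower in 3 of 23 alternatives (adjusted p-values of 0.0176 to 0.0385), median-ratio scaling among them, and changed sign in 2, quantile scaling among them (0.07). Both estimates failed in all 4 marrow pools, so these fits rest on the wound pools.

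Larger differences were seen in Mxd1 and in the rows that hold Csf3r and Padi4. Mxd1, a MAX partner that rises as granulocytes mature, had 243 and 241 FPKM in the diabetic wound pools, against 620 and 638 FPKM in the nondiabetic wound pools, a difference of -1.37 (SE 0.039, adjusted p = 8.97e-06). The row of Csf3r, the G-CSF receptor, with its neighbour Mrps15, had 96.3 and 94.3 FPKM in diabetic pools and 241 and 250 FPKM in nondiabetic pools (-1.35, SE 0.039, adjusted p = 2.29e-05), in a fit without 1 marrow pool whose estimate failed. Padi3 and Padi4 share a row; PADI4 citrullinates histones when neutrophils release extracellular traps. That row had 2.71 and 3.68 FPKM in diabetic wound pools and 19.1 and 19.3 FPKM in nondiabetic wound pools (-2.28, SE 0.10, adjusted p = 2.82e-05). Retnlg and Lcn2, secreted neutrophil proteins, differed by -0.73 and -0.96. The stefins, inhibitors of cysteine proteases that sit in a cluster on chromosome 16, were higher. Stfa2 had 3260 and 8967 FPKM in diabetic pools and 1436 and 1320 FPKM in nondiabetic pools (1.97, SE 0.43, adjusted p = 0.00938). Stfa3 had 65.9 and 69.2 FPKM in diabetic pools and 24.9 and 25.2 FPKM in nondiabetic pools (1.40, SE 0.045, adjusted p = 1.1e-05). The stefin genes are near-identical copies, and the 2 diabetic values of Stfa2 lie far apart.

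Transcripts typical of keratinocytes, endothelium and fibroblasts were present in every wound pool and differed between the genotypes. Keratinocyte markers were higher in 22 of 28 cases and lower in 2. Their FPKM summed to 886 and 865 in the diabetic wound pools and 396 and 419 in the nondiabetic wound pools. Krtdap, a gene of differentiating keratinocytes, had 36.5 and 37.9 FPKM in diabetic pools and 9.13 and 10.1 FPKM in nondiabetic pools (1.85, SE 0.069, adjusted p = 1.7e-05). Krt1 had 15.7 and 12.4 FPKM in diabetic pools and 3.49 and 2.69 FPKM in nondiabetic pools, while Krt15, of basal and follicle keratinocytes, was lower by 0.52. Endothelial markers were higher in 20 of 25 cases and lower in none (in 1 with quantile or median-ratio scaling), with sums of 265 and 260 FPKM in diabetic pools and 144 and 147 FPKM in nondiabetic pools. Cldn5, the tight junction protein of endothelium, had 17.9 and 19 FPKM in diabetic pools and 3.68 and 4.02 FPKM in nondiabetic pools (2.00, SE 0.063, adjusted p = 1.06e-05), and Cdh5, its cadherin, differed by 0.77. Fibroblast and matrix markers went down in 16 of 30 cases and up in 4. Col3a1, a fibrillar collagen, had 59.6 and 58.5 FPKM in diabetic pools and 88 and 86.8 FPKM in nondiabetic pools (-0.56, SE 0.041, adjusted p = 0.00014), while Dcn, decorin, differed by 0.42. These lists moved with the genotype beside every result above. How much of the epidermal growth factor, chemokine and lipid differences they carry was not tested.

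A mast cell protease row gave the largest rise under the naming rule. The row of Mcpt1 and Mcpt2 had 598 and 610 FPKM in the diabetic wound pools and 22.9 and 30.6 FPKM in the nondiabetic wound pools, a difference of 4.46 (SE 0.30, adjusted p = 0.000109). Mcpt2, also listed alone on the same span, had 317 and 334 FPKM in diabetic pools and 15.3 and 17 FPKM in nondiabetic pools. The row of Mcpt4 and Mcpt9 has the same span too, so the split of reads between these rows is uncertain. Mcpt1 and Mcpt2 are best known from mucosal mast cells. Proteases of connective tissue mast cells were higher by less: Tpsab1, a tryptase, had 26.1 and 26.2 FPKM in diabetic pools and 7.9 and 7.81 FPKM in nondiabetic pools (1.61, SE 0.049, adjusted p = 1.02e-05), and Cma1, the chymase, differed by 1.14. The row of Mcpt4 and Mcpt9 and the gene Fcer1a, the IgE-binding chain of the IgE receptor, were both higher by 0.75. Cpa3, mast cell carboxypeptidase, had 28.2 and 28.4 FPKM in diabetic pools and 30 and 31.2 FPKM in nondiabetic pools and did not pass (it was lower under 4 of 23 alternatives, median-ratio scaling among them). Kit, the stem cell factor receptor, was lower by 0.54. In the whole list of mast cell, basophil and eosinophil markers 7 of 19 were higher and 6 lower, with sums of 534 and 525 FPKM in diabetic pools and 537 and 547 FPKM in nondiabetic pools. Mcpt1 and Mcpt2 are not in that list, so its counts and sums leave them out.

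**Figure D4:**
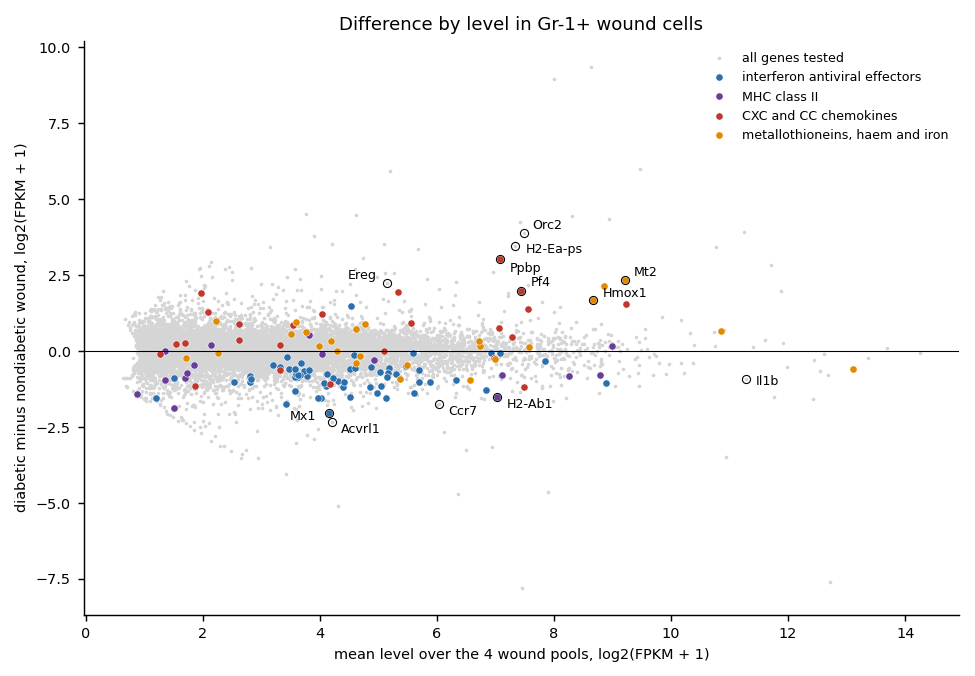
Difference between diabetic and nondiabetic wound cells (vertical axis, log2(FPKM + 1)) against the mean level over the 4 wound pools (horizontal axis, log2(FPKM + 1)) for all 12106 genes tested (grey), with 4 gene lists in colour and named genes ringed. Interferon antiviral effectors lie at or below the line at 0 apart from Xaf1, while Ppbp, Pf4, Mt2 and Hmox1 stand above it.

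By the naming rule, the 15 largest rises and 15 largest falls were taken among 2819 genes that passed, whose pools did not overlap and whose mean reached 10 FPKM in the higher group, leaving out small RNAs, numbered models and immunoglobulin segments. Those rises not yet described were led by Orc2, a subunit of the origin recognition complex, with 338 and 330 FPKM in the diabetic wound pools and 21 and 22 FPKM in the nondiabetic wound pools (3.90, SE 0.21, adjusted p = 4.71e-05). Slc6a12, a betaine carrier, had 40.9 and 40.8 FPKM in diabetic pools and 5.44 and 5.39 FPKM in nondiabetic pools (2.71, SE 0.043, adjusted p = 3.99e-06). Slc22a4, the ergothioneine carrier, had 58.5 and 58.6 FPKM in diabetic pools and 8.63 and 9.18 FPKM in nondiabetic pools (2.59, SE 0.045, adjusted p = 3.99e-06). Grap, an adaptor protein, and Aig1, a membrane hydrolase, differed by 2.70 and 2.43. Further rises rest on partial loci or uneven pools. Ldhb (3.54), Cma2 (3.44), Pcolce2 (3.36), Tmem181b-ps (2.75), Gtpbp10 (2.62) and the row of H2-T23 and H2-T3 (2.82) were tested on loci with 0% to 41.5% of their annotated exons. Of these, Cma2 and Tmem181b-ps passed the testing floor through the diabetic pools alone. Pcolce2 had 114 and 55.8 FPKM in diabetic pools and 28.9 and 1.08 FPKM in nondiabetic pools, and its call was lost in 14 of 23 alternatives (adjusted p-values of 0.0536 to 0.175), leaving out either diabetic pool among them. Gtpbp10 was lost without the second diabetic pool (adjusted p of 0.0618) and without the first nondiabetic pool (0.0573).

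Of the falls not yet described, Apobec3, a cytidine deaminase that restricts retroviruses, had 2.59 and 2.7 FPKM in the diabetic wound pools and 13.5 and 12.8 FPKM in the nondiabetic wound pools (-1.95, SE 0.061, adjusted p = 1.05e-05). Chaf1b, a subunit of the factor that loads histones onto new DNA, had 2.27 and 2.63 FPKM in diabetic pools and 11.9 and 11.5 FPKM in nondiabetic pools (-1.88, SE 0.075, adjusted p = 1.9e-05). Mcm10, a replication factor, and Fuca2, a fucosidase, differed by -1.91 and -1.86. Dmbt1, a scavenger receptor of mucosa, had 0.00505 and 0.0247 FPKM in diabetic pools and 10 and 11 FPKM in nondiabetic pools (-3.50, SE 0.061, adjusted p = 3.99e-06), on a locus with 40% of its exons. Kazn, a protein of the cornified envelope, differed by -2.89 and lost its call without the second diabetic pool (adjusted p of 0.0522). The gene model RP23-38P5.8 differed by -2.65 on a locus of 524 bp with no annotated exon. Krt8 (-4.72), Sec22c (-3.38) and Lama5 (-1.86) were tested on loci with under 15% of their exons, so these values describe fragments. Dmbt1 and Sec22c passed the testing floor through the nondiabetic pools alone. Hoxa3, a homeobox gene studied in wound repair, had 0.121 to 0.666 FPKM over its 2 loci in the diabetic wound pools and 0.399 to 2.3 FPKM in the nondiabetic wound pools, and was not tested.

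The last comparison set the difference in wound beside the same difference in bone marrow, where the pools came from the same mice. The difference of the 2 differences passed the limma test in 7330 of 12078 genes (60.7%). Of the 690 genes that differed by at least 1 in wound, 121 also differed by at least 1 in marrow, 95 of them in the same direction and 26 in the opposite one. The share of all genes that differed by at least 1 in marrow was not counted. These counts therefore cannot be read as more or fewer than over all genes. Genes raised in both tissues included H2-Ea-ps, Grap, Aig1, Cd36, Scd1, Id2 and the stefins. Grap had 26.5 and 26.7 FPKM in diabetic marrow and 2.15 and 2.48 FPKM in nondiabetic marrow. Genes lowered in both included Apobec3, with 6.51 and 7.36 FPKM in diabetic marrow and 24.7 and 25.3 FPKM in nondiabetic marrow, and the antiviral genes Oas2, Oas3 and Rsad2. For Oas2 and Rsad2 the wound and marrow differences were close, -1.52 and -1.48 for Oas2 and -1.26 and -1.25 for Rsad2, and neither passed the test of a difference between tissues (adjusted p = 0.474 and 0.887). Isg15 was lower in marrow by more than in wound, -1.71 against -0.95 (adjusted p = 0.000336), and Mx1 by less, -0.74 against -2.04 (adjusted p = 9.83e-05).

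Opposite directions were seen in Ppbp, Pf4 and Hspa1b. Ppbp had 0.453 and 0.345 FPKM in diabetic marrow and 5.36 and 4.65 FPKM in nondiabetic marrow, a difference of -2.10 against 3.02 in wound. Pf4 differed by -1.92 in marrow and by 1.98 in wound. Hspa1b had 32.9 and 35.6 FPKM in diabetic marrow and 14.1 and 11.1 FPKM in nondiabetic marrow, a difference of 1.38 against -1.64 in wound. Many genes of the wound response had almost no transcript in marrow. Ereg had 0.0719 and 0 FPKM in diabetic marrow and 0.0538 and 0.0304 FPKM in nondiabetic marrow, and Mt2 had 1.24 and 0.752 FPKM in diabetic marrow and 1.21 and 1.18 FPKM in nondiabetic marrow.

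**Figure D5:**
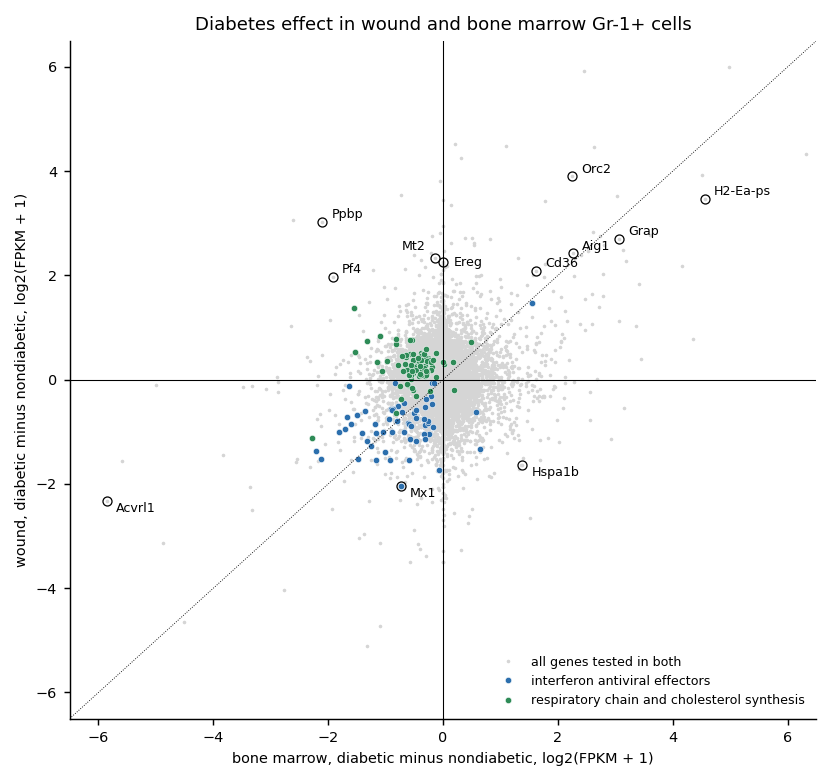
Difference between diabetic and nondiabetic mice in wound cells (vertical axis) against the same difference in bone marrow cells (horizontal axis), both on the log2(FPKM + 1) scale, for genes tested in both (grey; 4 genes lie outside the plotted range), with a dotted line of equal differences. Interferon antiviral effectors (blue) lie mostly in the lower left, respiratory chain and cholesterol genes (green) mostly in the upper left, and Ppbp and Pf4 opposite Hspa1b.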

How the data were processed

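RNA from Gr-1+ cells was sequenced on an Illumina HiSeq2000 with 1 lane per sample, per the labels' protocols, in 4 groups of 2 libraries. The submitters' processing notes name TopHat, Cufflinks and mm9, with versions not given in the sources used here. The deposited values are FPKM per assembled locus, with a status for each library, computed by the authors across all samples in 1 table. Cufflinks can fail on very deep loci, splits a gene over several loci and joins overlapping genes in 1 row. For a name with several loci the one with the highest mean FPKM in the wound libraries was tested, and 2922 tested loci cover less than 50% of the annotated exons of their gene. No strand is recorded in the table, so overlapping antisense genes cannot be told apart.

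From the deposited FPKM, log2(FPKM + 1) was fitted with limma 3.58.1 in R 4.3.3 (trend in the prior variance, all 8 libraries, failed marrow estimates left out), for genes with at least 1 FPKM in 2 of 4 wound libraries. The contrast was diabetic minus nondiabetic wound, and a second contrast set it against the same difference in marrow. Benjamini-Hochberg adjustment ran over the whole set tested, with a threshold of 0.05, and the script was tested on simulated data. Tables and plots used Python 3.11.15, pandas 2.3.3, numpy 2.4.6 and matplotlib 3.10.9. Genes were named as the 15 largest differences each way among those past the threshold without overlap and with a mean of at least 10 FPKM, up to 4 members of each of 49 lists by smallest p, further members of lists described in depth, and a fixed set that includes Lepr, Ly6g, Arg1, Il1b, Tnf, Acvrl1 and Hoxa3. Some genes that this rule names are not reported here. The comparison, its genes and the lists were chosen with earlier results of these data known. Pools of 5 mice and lanes are the only replicates, so the spread between libraries may be partly technical. Alternatives covered the pseudocount, floor, scaling, variance model, replicate block, choice of locus and each library left out.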

Additional observations from a re-analysis of the deposited data

Results flagged for a closer look

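The difference between diabetic and nondiabetic mice was not the same in wound and bone marrow for 10 genes singled out here, by limma's test of the difference of the 2 differences with Benjamini-Hochberg adjustment over 12078 genes (60.7% of which passed). Values are wound minus marrow on the log2(FPKM + 1) scale. Ppbp gave 5.12 (adjusted p = 1.26e-05) and Pf4 3.89 (adjusted p = 1.75e-05), both higher in diabetic wound and lower in diabetic marrow. Hspa1b gave -3.02 (adjusted p = 5.84e-05), with the signs reversed. Acvrl1 gave 3.54 (adjusted p = 0.000114): it was lower in both tissues, by more in marrow. Mx1 gave -1.30 (adjusted p = 9.83e-05) and H2-Ab1 -0.87 (adjusted p = 0.000366), both lower in both tissues, by more in wound. Mt2 gave 2.49 (adjusted p = 0.000114) and Ereg 2.27 (adjusted p = 2.21e-05), both near 1 FPKM or less in marrow. Il1b gave -0.86 (adjusted p = 0.000876), with 114 and 109 FPKM in diabetic marrow and 111 and 122 FPKM in nondiabetic marrow. Cd36 gave 0.47 (adjusted p = 0.00121), higher in both tissues and by more in wound.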

How the results depend on the processing

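The number of genes past the threshold was 7138, and it was 4603 with a floor of 5 FPKM, where fewer genes were tested. The number with a difference of at least 1 was 690, against 1111 with a pseudocount of 0.1, 226 with a pseudocount of 5 and 407 with a floor of 5 FPKM. The number that differed between tissues was 7330, against 4748 with that floor. Leaving out 1 library at a time gave 5674 to 7156, 678 to 718 and 6281 to 6818 genes for the 3 counts. S100a9 reversed to 0.0746 with quantile scaling, and to 0.47 where status OK in all 8 libraries was asked, when another locus with no annotated exon took its place. Xaf1 reversed to -1.84 on the locus with the most annotated exons. Of 180 gene results, 161 kept direction and call under every alternative that gave them a value (24 alternatives with 10 to 180 values each). With a pseudocount of 0.1, Ccl5, Il23a, Dcn, Kazn, Krt8 and Pcolce2 lost their calls. Pools with the same number did not deviate together from their group means. Correlations of deviations were -0.376 between the wound groups and -0.351 between the marrow groups. They were -0.135 and -0.283 between wound and marrow of diabetic and nondiabetic mice. All were negative, so pairing by other numbers was not excluded, and a block that crosses numbers between tissues was not fitted. A replicate block on the pool number gave 6979, 684 and 7156 genes, and one on the pool of mice gave 6671 genes that differed between tissues. With crossed numbers, an alternative added after seeing the data, 6926 genes passed. Absolute depth is unknown, which limits genes near 1 FPKM, and pools hide the spread between mice.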

Other observations

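Immunoglobulin kappa variable segments, made by B lineage cells, differed widely between pools and genotypes. Of 38 Igkv names tested, 10 were higher and 17 lower by at least 1 in diabetic wound cells, with differences of -5.11 to 4.49 on the log2(FPKM + 1) scale. Their FPKM summed to 204 and 249 in the diabetic wound pools and 300 and 427 in the nondiabetic wound pools. Chromosome 6, which holds the kappa locus, had 77 differences of at least 1 among 642 genes tested (12%, against 5.70% over all chromosomes), and 27 of them were kappa segments. Of 24 markers of B and plasma cells, 6 reached the level for testing, 2 of them lower and none higher, and they summed to 43.6 and 41.8 FPKM in the diabetic wound pools and 52.9 and 53.1 FPKM in the nondiabetic wound pools.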
